A study of Mus musculus with 28 samples.

Results

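Binding of 4 Forkhead transcription factors was examined around 6 genes of the Nodal pathway: the ligand gene Nodal, its co-receptor gene Tdgf1 (Cripto), the secreted antagonist genes Lefty1, Lefty2 and Cer1, and the intracellular inhibitor gene Smad7. The members were all ChIP-exo binding events within 50 kb of either end of these genes on mm10, which gave 181 of the 162571 events in 14 lists, around 6 of 21887 protein-coding genes. Lefty2 and Lefty1 lie 35915 bp apart, so their windows overlap. An event within 50 kb of both is given under both genes and counted once in every sum.

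Nodal is a secreted ligand of the TGF-beta family that signals through activin receptors, with Cripto as co-receptor, to Smad2 and Smad3. These enter the nucleus with Smad4 and act with partners such as Foxh1, itself a Forkhead protein, on targets that include Nodal and the Lefty genes, so the pathway feeds back on itself. The pathway is active in cultured mouse embryonic stem (ES) cells and specifies mesoderm and endoderm in the embryo, where FoxA factors are known as regulators of endoderm genes.

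ChIP-exo trims immunoprecipitated DNA with an exonuclease up to the crosslinked protein, and each event here is a single position with a score. All lists came from MC1 mouse ES cells (129S6/SvEvTac) with a transgene in the Rosa26 locus that doxycycline (Dox) represses, encoding a factor with a C-terminal His6-FLAG tag. For each factor there was 1 combined list, whose name gives the factor only. From the sample titles, it was taken to hold the libraries outside the time courses, at 24 h after Dox removal. These were 3 libraries for FoxA1 (2 with anti-FLAG and 1 with anti-FoxA1) and 2 anti-FLAG libraries each for FoxC1, FoxL2 and FoxP3. FoxA1 was also followed at 0, 6, 12, 24 and 48 h with each of the 2 antibodies, with 1 library and 1 list per time and antibody. The cells moved to a differentiation medium with serum when Dox was washed out, so hours of factor expression and hours in that medium cannot be told apart. The labels name 1 line per factor, and expression from a transgene in ES cells limits each as a model of the factor's native cells. The empty control, at 0 h, has no list used here, and its second library names anti-FoxA1 in its title but anti-FLAG in its characteristics.

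The lists differed in length from 15 events (anti-FoxA1, 0 h) to 41726 events (anti-FoxA1, 48 h), and their read depth is unknown. Scores are the authors' own whole numbers from 43 to a ceiling of 1000 on an unstated scale. Where lists are compared, a score is read as its percentile within its list, with ties at their midpoint. Scores of different lists printed without percentiles are as deposited, and a difference between them is not read as a change in binding. No list has a replicate of its own, so no test between lists was possible, and the 95% Wilson intervals below cover counting error only.

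Tdgf1 and Cer1 were the only members with FoxA1 events inside the promoter stretch of the RefSeq table (GRCm38.p6), 250 bases before to 50 bases after the start, among the 3 members that have an entry there (Nodal, Tdgf1 and Cer1). These stretches are printed because they let the event positions be set against the letters. The letters searched were the Forkhead words TGTTTAC and TGTTTGC, with TATTTAC and also TATTTGC, on both strands, and capitals mark a match. They are read 5′ to 3′ along the gene, on the minus strand of chr4:82885102-82885401 for Cer1 and of chr9:110946109-110946408 for Tdgf1.
Cer1: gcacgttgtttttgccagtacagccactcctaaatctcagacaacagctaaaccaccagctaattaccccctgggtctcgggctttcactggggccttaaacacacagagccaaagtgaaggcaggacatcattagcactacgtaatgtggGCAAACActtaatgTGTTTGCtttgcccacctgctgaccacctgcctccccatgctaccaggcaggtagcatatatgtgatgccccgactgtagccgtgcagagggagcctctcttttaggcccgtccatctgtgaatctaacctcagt
Tdgf1: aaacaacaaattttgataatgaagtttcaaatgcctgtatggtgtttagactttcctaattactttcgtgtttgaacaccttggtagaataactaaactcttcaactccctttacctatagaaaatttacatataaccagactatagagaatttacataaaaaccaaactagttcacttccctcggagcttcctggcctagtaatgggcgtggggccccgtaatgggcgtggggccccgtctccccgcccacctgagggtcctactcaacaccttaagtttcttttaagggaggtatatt

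The Cer1 stretch holds TGTTTGC in both orientations, at bases 152 to 158 on the other strand and at bases 166 to 172 on the strand shown. The combined FoxA1 event lies at base 104, which is 48 bases from the nearer match. It thus had no word within 25 bases, where 221 of the 424 combined FoxA1 events in such stretches (52.1%) had one. Of the 32851 stretches in the table, 13.5% hold at least 1 of the 4 words, 5.07% hold TGTTTGC and 1.41% hold 2 or more matches. The Tdgf1 stretch holds none of the words, although 4 FoxA1 course events fall in it, at bases 59 (anti-FoxA1, 12 h), 5 (anti-FoxA1, 24 h), 56 (anti-FoxA1, 48 h) and 29 (anti-FLAG, 24 h). Across the table, 273 of the 473 stretches with a combined FoxA1 event (57.7%) hold a word. Combined FoxA1 events in a stretch with none of the words were thus common. The Tdgf1 stretch has course events only, for which this share was not taken. The Foxh1 word TGTGNATT, searched on both strands and found in 3.6% of stretches, is not in the Cer1 stretch.

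The genes stand as follows on mm10, by the RefSeq annotation of GRCm38.p6. Nodal (gene 18119) spans chr10:61417972-61425338 and is read towards higher coordinates. Tdgf1 (21667) spans chr9:110939608-110946158 and Cer1 (12622) spans chr4:82881751-82885151, and both are read towards lower coordinates. Lefty2 (320202) spans chr1:180893108-180899107, Lefty1 (13590) spans chr1:180935022-180938401 and Smad7 (17131) spans chr18:75367365-75395935. For Lefty1, Lefty2 and Smad7 no strand is used here, so their events are placed below the lower or above the higher end.

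FoxA1 events lay near every one of the 6 genes 24 h after Dox removal. The combined FoxA1 list had an event within 50 kb of 6 of 6 members, where 73.4% of all protein-coding genes had one. It held 9 events near Smad7, 8 near Tdgf1, 7 each near Lefty1, Lefty2 and Cer1, and 5 near Nodal, against a median of 2 over all protein-coding genes. Counts at least as high were found for 3.34% of protein-coding genes in the case of Smad7, 5.01% for Tdgf1, 7.58% for Lefty1, Lefty2 and Cer1, and 17.2% for Nodal. All 6 genes thus had more FoxA1 events than the median gene, and Nodal, the ligand, had fewest. The Lefty1 and Lefty2 counts are not separate, since most of their events lie in both windows. A member was the nearest protein-coding gene for 21 of the 38 events.

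**Figure D1:**
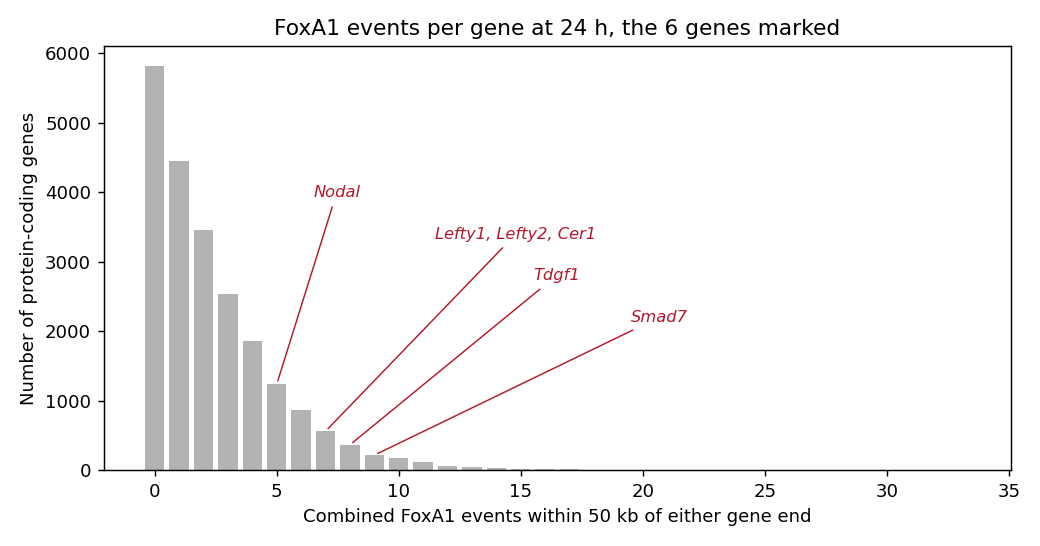
Number of protein-coding genes (y axis) by the number of combined FoxA1 events within 50 kb at 24 h (x axis), with the counts of the 6 members marked. The members hold 5 to 9 events, all to the right of the median of 2. Lefty1 and Lefty2 share most of their events.

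The other 3 factors had fewer events there, and their lists were shorter. Near the members lay 2 of 1112 FoxC1 events (0.18%), 3 of 7244 FoxL2 events (0.0414%) and 5 of 4385 FoxP3 events (0.114%). For FoxA1 it was 38 of 32948 (0.115%). FoxC1 events lay near 2 of the 6 members (Tdgf1 and Smad7), where 7.26% of protein-coding genes had one. FoxL2 events lay near 4 members (Tdgf1, Cer1 and, by 1 event in both windows, Lefty1 and Lefty2), where 30.9% had one. Within 20 kb FoxL2 was near 1 member, where 16.95% of protein-coding genes had an event, and FoxC1 near 1, where 3.66% had one. FoxP3 events lay near 3 members (Nodal, Tdgf1 and Smad7), where 20.6% had one. Tdgf1 was the only member with events of all 4 factors within 50 kb, but its FoxL2 event lay 32312 bp away with the score of 43 (percentile 1.39), so this did not hold within 20 kb or among events at or above the median score.

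In the courses, no event lay near any member at 0 h or 6 h with either antibody, and the share of all protein-coding genes with one was also close to 0 (anti-FLAG: 0% at 0 h, 0.0411% at 6 h; anti-FoxA1: 0.0731% at 0 h, 0.576% at 6 h). With anti-FLAG, 2 members had an event at 12 h (9.81% of all genes), 6 at 24 h (51.6%) and 6 at 48 h (49.1%). With anti-FoxA1, 6 members had one at 12 h (36.6% of all genes), 6 at 24 h (73.5%) and 6 at 48 h (76.6%). The anti-FoxA1 list at 12 h (8345 events) thus had an event near all 6 genes. For Lefty1 and Lefty2 it was the same single event (score 47, percentile 11.8). The shorter anti-FLAG list at 12 h (1656 events) held 1 event near the members, also shared by Lefty1 and Lefty2.

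**Figure D2:**
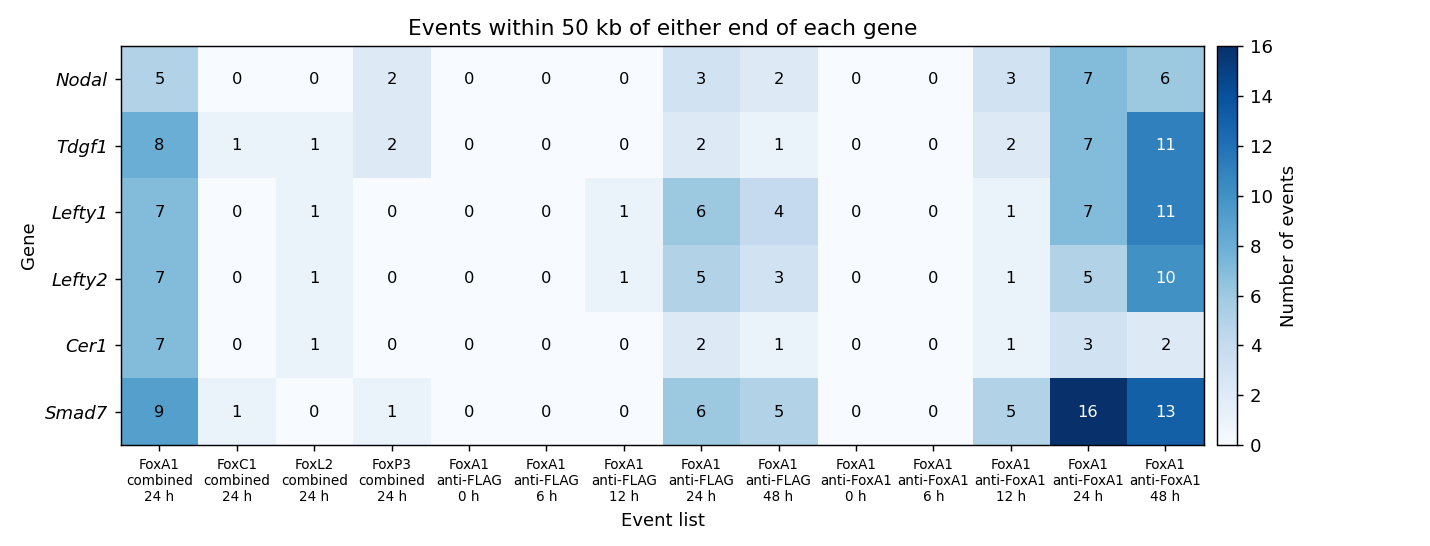
Events within 50 kb of each of the 6 genes in each list (one cell per gene and list, number printed and shaded). The 0 h and 6 h lists are empty for all 6 genes, and Smad7 leads in the combined FoxA1 list (9) and at 12, 24 and 48 h with anti-FoxA1 (5, 16 and 13).

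**Figure D3:**
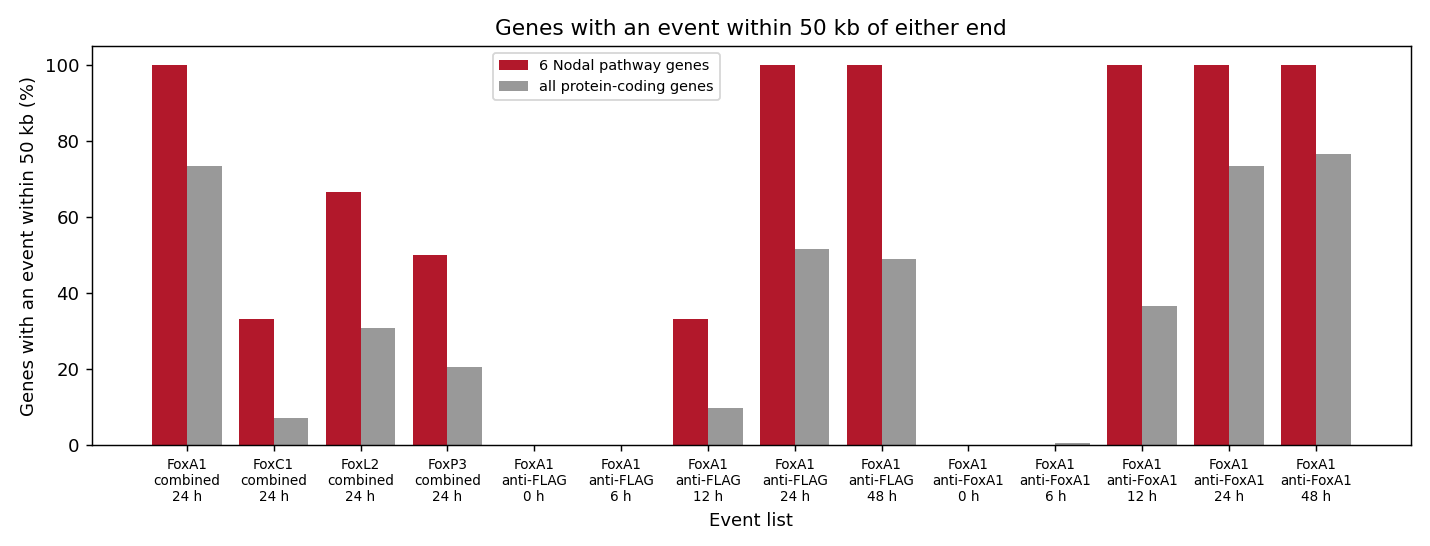
Percent of genes with at least 1 event within 50 kb, for the 6 members and for all protein-coding genes, in each list. In the combined FoxA1 list all 6 members have an event, against 73.4% of all protein-coding genes.

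Nodal, which encodes the ligand, had all 5 of its combined FoxA1 events on the upstream side. Over all lists 23 of 28 events lay upstream and 1 inside (FoxP3), and the 28 joined into 12 sites. The 4 downstream were anti-FoxA1 events, 1 at 24 h (score 62) and 3 at 48 h (scores 49, 84 and 59). The highest-scoring one was 42479 bp upstream, inside the neighbouring gene Pald1 (chr10 position 61375493, score 565, percentile 91.7). At this site anti-FoxA1 scored 151 at 12 h (percentile 82.5), 319 at 24 h (89.7) and 356 at 48 h (90.9). Anti-FLAG scored 86 there at 24 h and had no event at 48 h. The nearest combined event lay 1883 bp upstream (position 61416089, score 487, percentile 89.9). With anti-FoxA1 it had an event of score 102 at 12 h and 157 at 24 h but none at 48 h, and with anti-FLAG none at any time. A site 19149 to 19209 bp upstream was present in both courses at 24 and 48 h but not in the combined list, with anti-FoxA1 scores of 48 at 12 h, 108 at 24 h and 128 at 48 h and anti-FLAG scores of 126 at 24 h and 66 at 48 h. With anti-FoxA1 the distal Nodal site was thus called at 12, 24 and 48 h and the proximal one only at 12 and 24 h. With anti-FLAG neither was called at 48 h. Each list is 1 library, so no difference in persistence is shown. FoxP3 had 2 events of its own at Nodal, 1425 bp upstream (score 64) and inside the gene (position 61418341, score 104, percentile 61.9). The FoxP3 event upstream was 458 bp from the nearest combined FoxA1 event and the one inside 2252 bp, so neither coincided with FoxA1 within 100 bp.

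Tdgf1, which encodes the co-receptor Cripto, had all its events on one side. Over all lists 35 of 35 events lay upstream, none inside the gene and none downstream. Many were calls of the same place in several lists, and they joined into 16 sites. The combined FoxA1 list had a cluster of 4 events between 1408 and 2779 bp upstream, the farthest being nearer to Lrrc2 than to Tdgf1. The cluster was led by position 110947819 (score 543, percentile 91.2). Events at this leading site had anti-FoxA1 scores of 225 at 24 h and 365 at 48 h, and anti-FLAG scores of 67 at 24 h and 77 at 48 h. Both FoxP3 events at Tdgf1 fell in this cluster, at 110947610 (score 114), 44 bp from a FoxA1 event of score 330, and at 110948147 (score 160), 73 bp from a FoxA1 event of score 86. The cluster had no event at 12 h with either antibody. The Tdgf1 sites called at 12 h were others. The site in the promoter stretch printed above, 192 to 246 bp upstream, had anti-FoxA1 scores of 51 at 12 h, 113 at 24 h and 194 at 48 h, an anti-FLAG score of 65 at 24 h, and no event in the combined list. The other early site lay 14289 bp upstream inside Lrrc2 (combined score 460) and had no anti-FLAG event. Its anti-FoxA1 scores were 134 at 12 h (percentile 78.7), 189 at 24 h (78.4) and 178 at 48 h (76.5). FoxC1 (score 54) and FoxL2 (score 43, percentile 1.39) each had 1 event in Lrrc2 upstream, 602 bp and 9072 bp from the nearest combined FoxA1 event.

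Lefty1 and Lefty2, which encode secreted inhibitors that block Nodal and its co-receptor, shared the highest-scoring site near the members together with one at Smad7. This Lefty site lies between the genes, 8454 bp below Lefty1 and 27461 bp above Lefty2, inside the annotated gene Gm39715, at chr1 position 180926568. Its combined FoxA1 score was at the ceiling of 1000, which 3.29% of the events in that list share. With anti-FLAG it scored 109 at 12 h (percentile 69.1), 767 at 24 h (97.1) and 360 at 48 h (89.8), and with anti-FoxA1 673 at 24 h (97.5) and 449 at 48 h (93.8). The anti-FoxA1 list at 12 h had no event there, so this site was called at 12 h with anti-FLAG only. FoxL2 had an event 8 bp away (score 98, percentile 76.2), the smallest distance between combined-list events of different factors near the members. The site nearest a Lefty gene lay 988 to 1005 bp below Lefty1, with a combined score of 425, anti-FoxA1 scores of 47 at 12 h, 188 at 24 h and 110 at 48 h, and an anti-FLAG score of 57 at 24 h. Its first call with anti-FoxA1 was thus earlier than that of the ceiling site, but by 1 event at percentile 11.8 of its list. With anti-FLAG the ceiling site was called first, so no order of binding is shown. On the far side of Lefty2, 15011 bp below its lower end in Gm39714, a site had a combined score of 657, anti-FLAG scores of 186 at 24 h and 192 at 48 h, and anti-FoxA1 scores of 315 at 24 h and 432 at 48 h. Above Lefty1, a site inside Tmem63a at 14225 bp had a combined score of 149, anti-FLAG scores of 61 at 24 h and 138 at 48 h, and anti-FoxA1 scores of 168 at 24 h and 290 at 48 h. Within their lists, both outer sites stood higher at 48 h than at 24 h. The Gm39714 site was at percentiles 74.3 and 76.5 with anti-FLAG and 89.6 and 93.4 with anti-FoxA1 at 24 and 48 h. The Tmem63a site at 14225 bp was at 26.3 and 65.8 with anti-FLAG and 75.0 and 87.7 with anti-FoxA1. Farther out in Tmem63a, a site at 27788 bp fell with anti-FLAG (62.6 and 20.2) and rose with anti-FoxA1 (80.9 and 89.5). The site at 27581 bp had a combined score of 241, no anti-FLAG event, and stood at 63.8 and 83.4 with anti-FoxA1. The ceiling site stood lower at 48 h with each antibody.

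Cer1, which encodes a secreted antagonist of Nodal and Bmp ligands, had 7 combined FoxA1 events but few in the courses. Only 3 of the 7 had a course event within 100 bp, and 4 of 7 had none (57.1%, interval 25.0 to 84.2%), against 32.1% of all combined FoxA1 events. The promoter event, 147 bp upstream at chr4 position 82885298 (score 243, percentile 77.1), was among those with no course event. Another event 9484 bp downstream scored 277 in the combined list, 69 at 12 h and 48 at 24 h with anti-FoxA1, and had no event at 48 h or with anti-FLAG. The highest-scoring Cer1 event lay 45377 bp upstream in Frem1 and Gm33260, with a combined score of 328, anti-FLAG scores of 151 at 24 h and 129 at 48 h, and anti-FoxA1 scores of 168 at 24 h and 400 at 48 h. Near Cer1 the sites called at 48 h were thus the distal ones, and a site not called then is not shown to be unbound. FoxL2 had an event in Frem1 at 82913718 (score 135, percentile 86.3), 20 bp from a combined FoxA1 event of score 62. With anti-FoxA1, Cer1 had 1 event at 12 h, 3 at 24 h and 2 at 48 h, and at 48 h 61.6% of protein-coding genes had at least as many. Cer1 was therefore an ordinary gene by count in the late anti-FoxA1 list.

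Smad7, which encodes an inhibitory Smad that blocks the activated receptors, had the most FoxA1 events. It is also the longest of the 6 genes (28571 bp), so its window was the widest (128571 bp), against 103380 bp for Lefty1. The anti-FoxA1 course held 5 Smad7 events at 12 h, 16 at 24 h and 13 at 48 h, and 0.973%, 0.503% and 2.15% of protein-coding genes had at least as many at these times. The leading site, 26899 bp below the gene at chr18 position 75340466, had a combined score of 1000, anti-FoxA1 scores of 71 at 12 h, 474 at 24 h and 505 at 48 h, and anti-FLAG scores of 313 at 24 h and 208 at 48 h. A second site 31530 bp below the gene scored only 89 in the combined list (percentile 42.4) but 340 at 24 h and 504 at 48 h with anti-FoxA1 (percentile 90.8 at 24 h), after 149 at 12 h. With anti-FLAG this site scored 326 at 24 h (percentile 87.7) and 150 at 48 h. It thus stood low in the combined list and high in both course lists at 24 h. FoxC1 had an event there, 44 bp from the combined FoxA1 event (score 71, percentile 52.3). Another site lay 6323 bp below the gene in Gm20544, with a combined score of 655, anti-FoxA1 scores of 62 at 12 h, 208 at 24 h and 153 at 48 h, and an anti-FLAG score of 132 at 24 h. The highest-scoring FoxP3 event near the members was next to it (position 75360936, score 451, percentile 96.1). It lay 106 bp from the combined FoxA1 event, so it is not among the shared sites of the combined lists, but 98 bp from the anti-FoxA1 event at 12 h, so it was joined to this site when all lists were used. Inside Smad7, position 75372548 had a combined score of 245 and anti-FoxA1 scores of 46 at 12 h, 79 at 24 h and 176 at 48 h, and it held the only combined FoxA1 event inside any member.

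**Figure D4:**
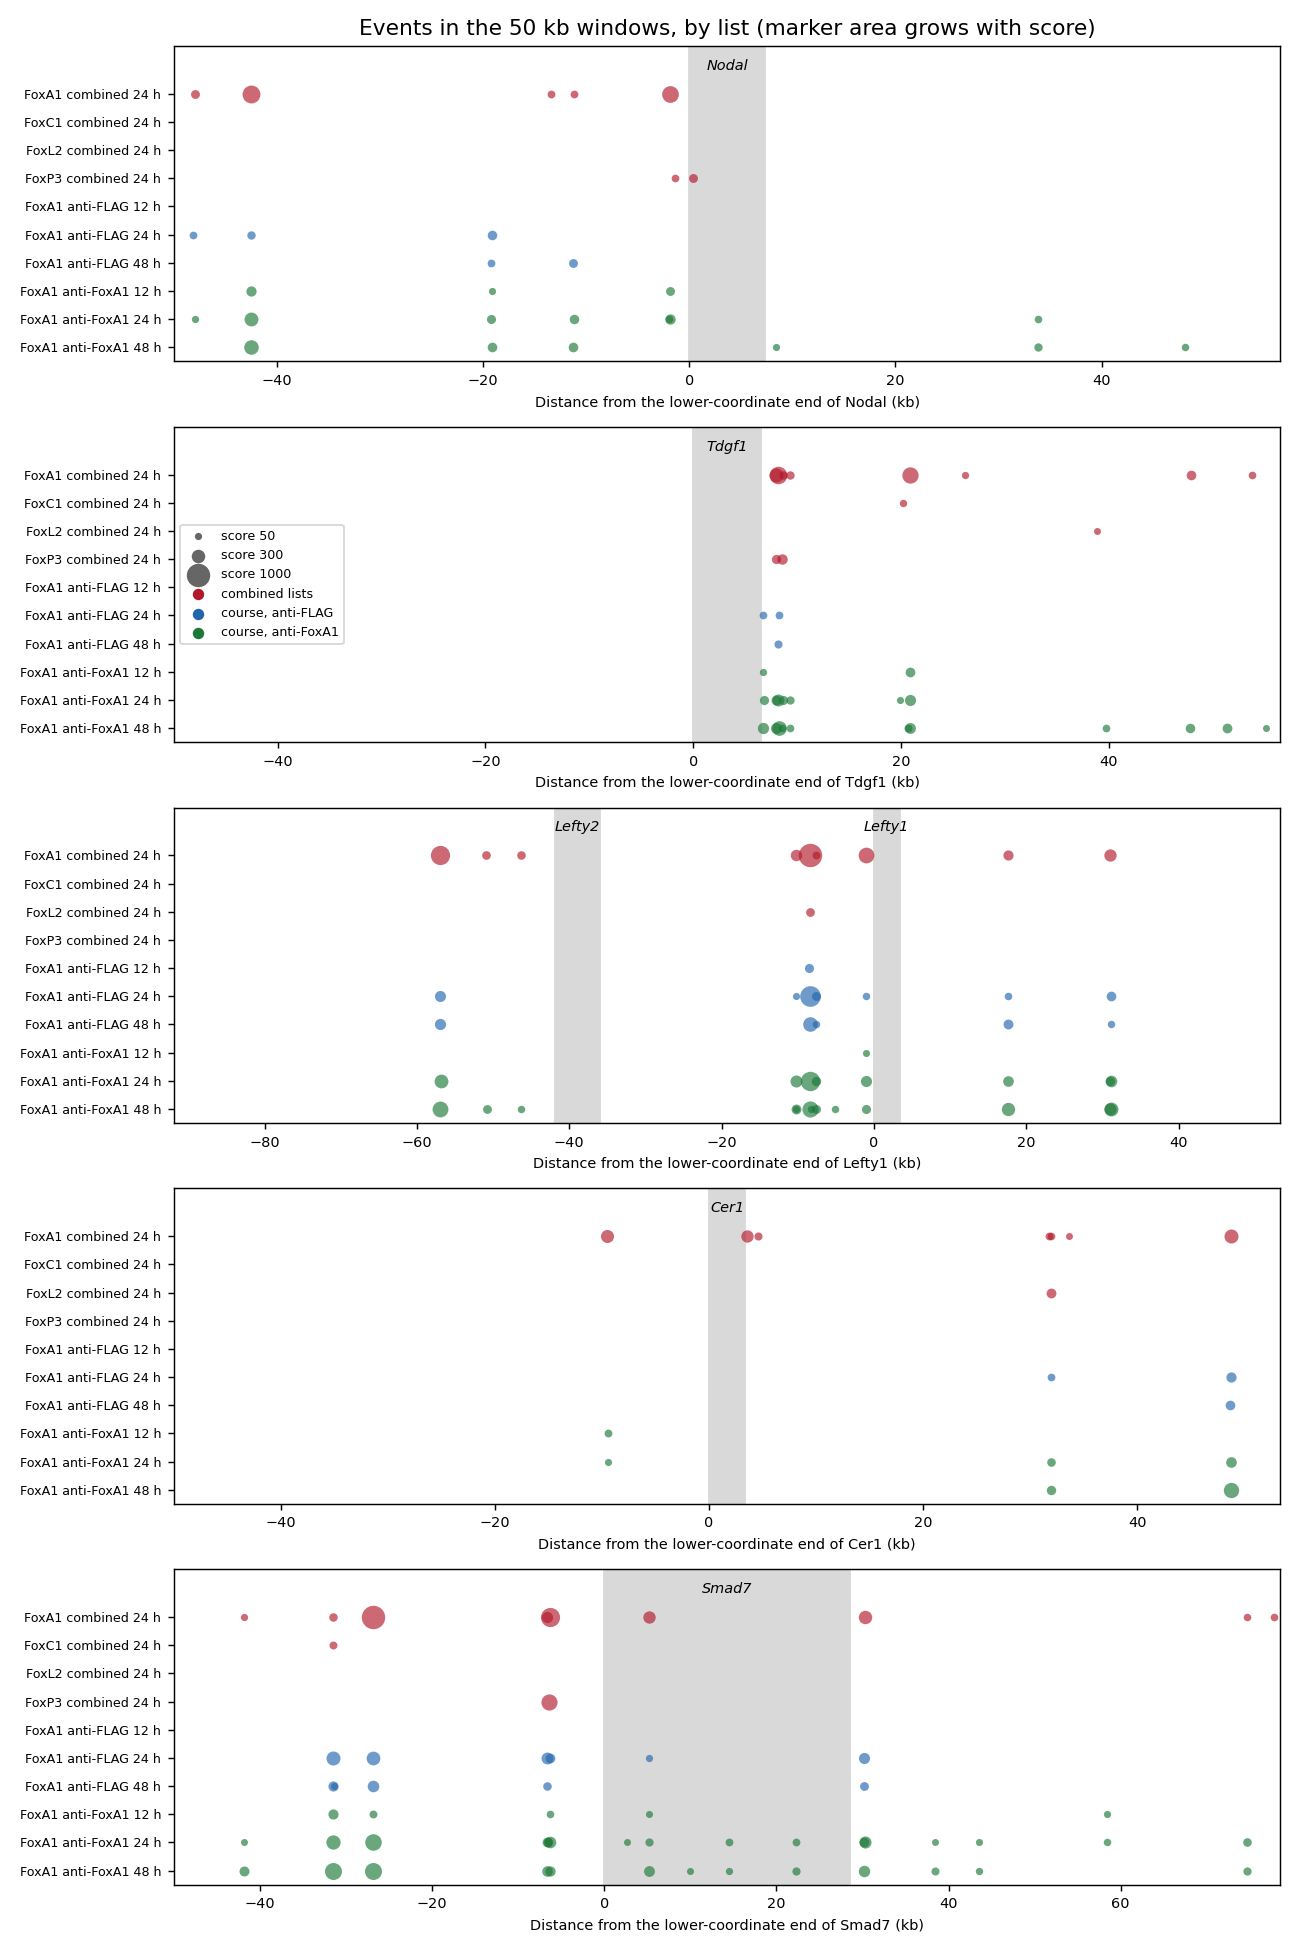
Events around each gene by list (rows), with distance from the gene's lower-coordinate end in kb on the x axis and marker area by score, in red for combined lists, blue for anti-FLAG and green for anti-FoxA1. Tdgf1 events lie on one side of the gene only, and the Lefty and Smad7 panels hold the markers at the score ceiling of 1000.

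Most events lay outside the 6 genes. Of the 38 combined FoxA1 events, 1 lay inside a member, 13 inside another protein-coding gene (among them Pald1, Lrrc2, Tmem63a and Frem1), 3 within 1 kb of a member and 17 within 10 kb. The median combined FoxA1 event near a member stood at percentile 60.6 of its list. At the edge of the window, the farthest combined FoxA1 event kept for Smad7 lay at 49257 bp (score 62) and the nearest one left out at 61274 bp (score 135). For Nodal these were 47971 bp (score 102) and 63389 bp (score 146), for Tdgf1 47243 bp (score 63) and 64334 bp (score 192). For Lefty1 they were 46304 bp (score 92) and 50895 bp (score 94), and for Lefty2 34921 bp (score 425) and 53519 bp (score 149). Cer1 stood apart, with its farthest event kept at 45377 bp (score 328) and the next one only at 217098 bp (score 62).

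Joining the events of all lists within 100 bp gave 65 sites near the members, of 70233 in all. Of these, 16 (24.6%, interval 15.8 to 36.3%) were in 5 or more lists, against 13.4% of all sites. In 1 list only were 27 (41.5%, interval 30.4 to 53.7%), against 50.5% of all sites, and in both antibody courses 20 (30.8%, interval 20.9 to 42.8%), against 25.2%. By nearest member, the sites in 5 or more lists were 2 of 12 for Nodal, 1 of 16 for Tdgf1, 4 of 9 for Lefty1, 1 of 4 for Lefty2, 2 of 7 for Cer1 and 6 of 17 for Smad7. Lefty1 and Smad7 together held 10 of the 16. A share of sites does not count as independent replication here, since neighbouring sites come from the same libraries.

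Sites of more than 1 factor were few. The 4 combined lists gave 43 sites near the members, of which 5 (11.6%, interval 5.07 to 24.5%) held events of 2 factors and 0 of 3 or more, against 8.6% of all such sites with 2 or more. FoxA1, with the longest list, was one of the factors at each of the 5, as it was at 3060 of all 3522 such sites. Its partners were FoxL2 at the Lefty site and at Cer1, FoxC1 at Smad7 and FoxP3 at the 2 Tdgf1 sites. Nodal had events of FoxA1 and FoxP3 but no shared site.

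First calls near the members came mostly at 24 h. With anti-FoxA1, 12 of 50 sites (24%, interval 14.3 to 37.4%) were first called at 12 h, 26 (52%) at 24 h and 12 (24%) at 48 h, against 15.9%, 52.8% and 31.2% of all sites of that course. With anti-FLAG, 1 of 22 sites was first called at 12 h, 19 (86.4%) at 24 h and 2 at 48 h, against 8.23%, 71.9% and 19.7% of all. The 12 sites first called at 12 h with anti-FoxA1 were 5 at Smad7, 3 at Nodal, 2 at Tdgf1 and 1 each at Lefty1 and Cer1. All 12 of the 12 h events had an anti-FoxA1 event within 100 bp at 24 h, against 89.2% of all, and 9 of 12 (75.0%, interval 46.8 to 91.1%) at 48 h, against 86.2% of all. The 3 without one at 48 h were the proximal Nodal site, the downstream Cer1 site and a site 29799 bp above Smad7 (scores 50 at 12 h and 57 at 24 h). Near the members 34 of 41 anti-FoxA1 events called at 24 h (82.9%) had one at 48 h, against 72% of all. With anti-FLAG 12 of 20 (60.0%) did, against 61.3% of all. Looking back, 33 of 45 anti-FoxA1 events at 48 h (73.3%) and 12 of 14 anti-FLAG events at 48 h (85.7%) had one at 24 h, against 60.6% and 70.6% of all, and 13 of 41 (31.7%) and 1 of 20 (5%) of those at 24 h had one at 12 h, against 22.6% and 10.6% of all. The single anti-FLAG event at 12 h, at the Lefty site, was found again at 24 h and at 48 h, as were 95.1% and 89.6% of all such events.

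The 2 antibodies met at most anti-FLAG events. Of the anti-FLAG events near the members at 24 h, 19 of 20 (95%, interval 76.4 to 99.1%) had an anti-FoxA1 event within 100 bp at the same time, against 86% of all, and at 48 h 13 of 14 (92.9%) did, against 90.2% of all. In the other direction 20 of 41 anti-FoxA1 events (48.8%) were met at 24 h, against 40.5% of all, and 13 of 45 (28.9%) at 48 h, against 31% of all. At 12 h none of the 12 anti-FoxA1 events was met by the single anti-FLAG event, the Lefty site (18.7% of all were met), nor was that event met by anti-FoxA1, although 90.3% of all anti-FLAG events at 12 h were. Of the 38 combined FoxA1 events, 27 (71.1%, interval 55.2 to 83.0%) met an anti-FoxA1 event of the 24 h course list, against 54.8% of all, and 15 (39.5%) met an anti-FLAG event of that time, against 33% of all. At 12 h they met 9 anti-FoxA1 events (23.7%), against 19.5% of all, and 1 anti-FLAG event (2.63%), against 4.82% of all. At 48 h they met 26 anti-FoxA1 events (68.4%), against 58.5% of all, and 11 anti-FLAG events (28.9%), against 29% of all. The labels do not say whether course libraries were also part of the combined list, so these shares may not compare separate libraries.

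Scores at 24 and 48 h come from lists of different length on an unstated scale, so they were compared as percentiles within each list. At sites called at both times, the anti-FoxA1 percentile was higher at 48 h at 21 of 32 sites near the members (65.6%), against 58.8% of all sites. The anti-FLAG percentile was higher at 48 h at 3 of 12 sites (25%) and lower at 9, against 44.8% of all sites higher. The scores as deposited gave the same counts near the members, against 61.8% of all sites higher with anti-FoxA1 and 40.2% with anti-FLAG. All sites of the lists leaned the same way as those near the members.

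**Figure D5:**
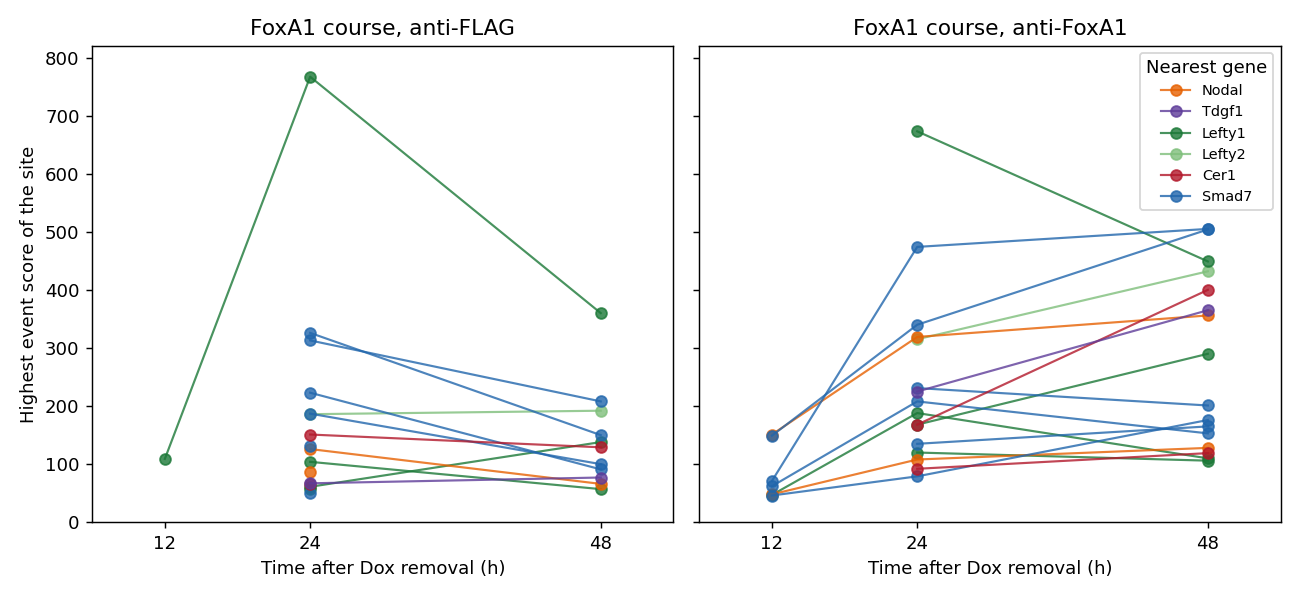
Score (y axis) at 12, 24 and 48 h (x axis) of the 16 sites near the members that were in 5 or more lists, one panel per antibody, coloured by nearest member. Scores are as deposited and not percentiles, so the lines do not measure change in binding between lists. The Lefty site at the ceiling of the combined list leads the anti-FLAG panel with 767 at 24 h and 360 at 48 h. It also leads the anti-FoxA1 panel at 24 h with 673. At 48 h with anti-FoxA1 it has 449, and the 2 leading Smad7 sites reach 504 and 505.

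The wider pathway was described with a list of 34 further genes, all found in the gene table. The combined FoxA1 list had an event within 50 kb of 32 of the 34, where 73.4% of all protein-coding genes had one, with a median of 2.5 events per gene against 2 over all genes. FoxC1 had events near 2 (5.88%), FoxL2 near 9 (26.5%) and FoxP3 near 8 (23.5%), shares near the 7.26%, 30.9% and 20.6% of all protein-coding genes. In the anti-FLAG course 1 gene had an event at 12 h (2.94%, against 9.81% of all genes), 25 at 24 h (73.5%, against 51.6%) and 19 at 48 h (55.9%, against 49.1%). In the anti-FoxA1 course 17 genes had one at 12 h (50%, against 36.6% of all genes), 32 at 24 h (94.1%, against 73.5%) and 34 at 48 h (100%, against 76.6%). By role, FoxA1 events lay near 4 of 5 ligands, 4 of 4 receptors, 2 of 2 processing enzymes, 4 of 4 signal transducers, 11 of 11 negative regulators and 6 of 7 targets.

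Among the genes grouped here as ligands, Gdf3, a Nodal-related factor, had 5 FoxA1 events and 1 each of FoxC1, FoxL2 and FoxP3. Bmp4, which encodes a Bmp ligand and not a Nodal or activin ligand, had 2 of FoxA1 and 1 of FoxC1. Cfc1 (Cryptic), a relative of Cripto, had 3 FoxA1 events, with the highest score at 209. Acvr1b, the type I activin receptor, had 8 FoxA1 events with the highest at the ceiling of 1000, and 1 of FoxL2, while the type II receptor gene Acvr2b had 2 and 1. Pcsk6 and Furin, which encode convertases that cleave the Nodal precursor, had 6 and 4 FoxA1 events, with highest scores of 167 and 740. These genes thus had FoxA1 events at several steps of the pathway, as 73.4% of all genes did. Tgif1, a corepressor of Smad-dependent transcription, had 14 FoxA1 events, 1 of FoxL2 and 5 of FoxP3. Skil (SnoN), another Smad corepressor, had 6 FoxA1 events (highest score 523), 1 of FoxL2 and 3 of FoxP3. The transducers Smad2 and Smad3 had 6 and 3 FoxA1 events, with highest scores of 127 and 544. By role, FoxP3 events lay near 2 of 5 ligands, 0 of 1 co-receptor, 0 of 4 receptors and 0 of 2 processing enzymes. They lay near 0 of 4 transducers, 5 of 11 negative regulators and 1 of 7 targets, against 20.6% of all protein-coding genes. FoxL2 events lay near 1 of 5 ligands, 0 of 1 co-receptor, 2 of 4 receptors and 1 of 2 processing enzymes. They lay near 1 of 4 transducers, 3 of 11 negative regulators and 1 of 7 targets, against 30.9% of all. FoxC1 events lay near 2 of 5 ligands and no gene of another role, against 7.26% of all. Differences between roles were not tested.

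Gdf1 and Sox17 had no combined FoxA1 event. Sox17, an endoderm transcription factor gene and a target of the pathway, had none with anti-FLAG at any time either, but with anti-FoxA1 it had 5 events at 24 h (highest score 384) and 6 at 48 h (highest score 427). Gdf1, a ligand gene that acts with Nodal, had 1 FoxP3 event (score 119) and, with anti-FoxA1, 2 events at 24 h and 1 at 48 h. Sox17 was thus near FoxA1 events in one antibody's lists only. Foxa2, an endoderm target and relative of FoxA1, had 4 combined FoxA1 events. Eomes, a mesendoderm target, had 3 FoxA1 events (highest score 116) and 1 FoxP3 event (score 242).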

How the data were processed

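The event lists were analysed as the authors deposited them. The submitters' processing notes name BWA 0.7.17-r1188, SAMtools, Picard and the mm10 build. The file headers name ChExMix as the event caller. The sources used here do not give its settings, which libraries went into each combined list or how they were combined. Each deposited event is 1 bp wide and has a score, as the authors wrote it, of 43 to 1000.

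Events within 50 kb of a gene's ends (RefSeq, GRCm38.p6) were assigned to it. Events of different lists within 100 bp coincided. Windows of 20 and 100 kb, coincidence at 50 and 200 bp, events at or above the median score and nearest-gene assignment were alternatives. Pathway genes were named by the number of combined-list events, at most 2 per role, and genes singled out beyond that rule (Gdf1, Sox17) were chosen after their values were seen. The members and lists were chosen with earlier results of these data known. Counting was tested on simulated lists. Python 3.11.15, NumPy 2.4.6, SciPy 1.17.1 and Matplotlib 3.10.9 were used. Some items are not reported here.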

Additional observations from a re-analysis of the deposited data

How the results depend on the processing

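Of 69 alternatives over 23 results, 43 kept a count within 1.5 times or a share inside its 95% interval and 26 did not. A narrower window or a cut at the median score can only lower an event count, so part of this tally follows from the settings. Within 20 kb, events near the members numbered 24 for combined FoxA1, 1 for FoxC1, 1 for FoxL2 and 23 for the anti-FLAG course, members with an event 1 for FoxC1 (3.66% of all genes) and 1 for FoxL2 (16.95%), and FoxC1 pathway genes 1 of 34. Within 100 kb, pathway genes of 34 numbered 5 for FoxC1 (12.2% of all genes), 18 for FoxL2 (46.3%) and 14 for FoxP3 (32.8%). With events at or above the median score, there were 20 for combined FoxA1, 1 for FoxC1 (near 1 member), 20 for the anti-FLAG course and 58 for the anti-FoxA1 course, and 2 sites of 2 or more factors. With nearest-gene assignment there were 21 for combined FoxA1, 1 for FoxC1, 1 for FoxL2, 22 for the anti-FLAG course and 59 for the anti-FoxA1 course. The anti-FLAG events met by anti-FoxA1 came to 100% at 24 and 48 h, both within 200 bp and above the median score. Replacing combined FoxA1 by the anti-FLAG course at 24 h, an alternative chosen after seeing the data, left 3 sites of 2 or more factors, and by the anti-FoxA1 course at 24 h 5.

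No paired analysis was possible because the combined lists merge the libraries of a factor, each course list is 1 library, and no result comes from a test. Leaving out a replicate was not possible for the same reason. Depth is unknown, so an event that is absent from a short list (the 0, 6 and 12 h lists most of all) was not detected there and is not shown to be unbound.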
